A study of Mus musculus with 15 samples.

Results

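The cytosolic ribosomal protein genes are 81 of the 21110 genes measured in ear RNA of wild type and *Socs3* cKO mice. They were chosen by symbol alone: Rpl or Rps with a number and at most one letter a, x or l after it, the acidic stalk genes *Rplp0*, *Rplp1* and *Rplp2*, and *Rpsa*. Of them, 49 encode proteins of the large subunit and 32 of the small subunit. The pattern does not take some further genes of ribosomal proteins or close relatives, such as *Fau* and *Rpl36al*, which are given below as a separate list. One library was made from the ear of each of 15 C57BL/6 mice: at 2 weeks after birth 4 wild type mice and 4 with the genotype *Socs3* cKO, and at 10 weeks 3 and 4. In the latter genotype the deletion of *Socs3*, an inhibitor of cytokine signalling through STAT3, is driven by keratin 5, so it covers keratinocytes and other cells of the ear keep the gene. The labels name keratinocytes as the source, whereas the RNA was extracted from ear. The level of a gene is its FPKM (fragments per kilobase of transcript, scaled to the mapped reads of the library).

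The ribosome is built from ribosomal RNAs and about one copy of each ribosomal protein, so cells keep the proteins in balance and make their mRNAs in large and matched amounts. Most of these mRNAs start with a tract of C and T, the terminal oligopyrimidine (TOP) tract, through which mTOR signalling and the protein *Larp1* control their translation. The large subunit holds the peptidyl transferase centre and the P stalk of *Rplp0*, *Rplp1* and *Rplp2*, which recruits translation factors. The small subunit decodes the mRNA. *Rpl5* and *Rpl11*, when free of ribosomes, bind *Mdm2* and so stabilise p53. *Rps6* is the classical phosphorylation target of S6 kinase. In skin, growth of keratinocytes and of the hair follicle depends on protein synthesis.

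Promoter sequences are shown for genes on which the results turn, because the members varied together and their mRNAs are known for the C and T tract. They are from the RefSeq table for GRCm38.p6, which held 72 start sites of 60 members, and each was located by a single match in mm9, the build of the data. Each line has 40 bases in the direction of transcription, 25 before the annotated start and 15 from the start on, and the longest run of C and T is in capitals.
Rplp2 (chr7:148633525-148633564, plus strand): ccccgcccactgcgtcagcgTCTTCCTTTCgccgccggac
Rpl38 (chr11:114529869-114529908, plus strand): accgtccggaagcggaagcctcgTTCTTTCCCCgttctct
Rpl35a (chr16:33056543-33056582, plus strand): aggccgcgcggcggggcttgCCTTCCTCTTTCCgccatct
Rps25 (chr9:44215772-44215811, plus strand): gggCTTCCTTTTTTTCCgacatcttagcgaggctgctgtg
Rpl13a (chr7:52384101-52384140, minus strand): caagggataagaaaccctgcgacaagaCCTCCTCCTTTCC
Rpl4 (chr9:64021169-64021208, plus strand): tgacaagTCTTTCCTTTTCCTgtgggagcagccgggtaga
Rps2 (chr17:24856983-24857022, plus strand): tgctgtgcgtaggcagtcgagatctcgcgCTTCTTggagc
Rpl3l (chr17:24864746-24864785, plus strand): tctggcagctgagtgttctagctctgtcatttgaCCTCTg

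A run of at least 8 C or T lay in this window at 41.67% of the 72 member starts and at 16.56% of all 32851 starts in the table. *Rplp2*, the member that departed furthest from the rest below, has such a run across its start, as do *Rpl38* and, at the start shown, *Rpl35a*. At the other annotated starts of *Rpl35a* the longest runs were 5 and 4 bases. The longest run was 5 bases in *Rpl3l*, the muscle relative of *Rpl3*. CCGGAA, searched on both strands of the 300 bases around the start, was in 47.22% of member promoters and 14.9% of all, and TATAAA in 6.94% and 8.32%. The motifs were counted separately, and they may overlap. These are counts of letters, not of sites in use.

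The share of all FPKM that the members took showed the pattern over the 4 groups. The wild type mice at 2 weeks had 11.7%, 11.7%, 11.6% and 11.4%, against 28.7%, 16.2%, 22.7% and 19.2% in *Socs3* cKO. The 10-week shares were 25.5%, 21.4% and 28.9% for wild type mice against 16.6%, 16.5%, 15.3% and 21.9% in *Socs3* cKO. All 4 wild type mice at 2 weeks lay below every other mouse, and at 10 weeks the highest *Socs3* cKO mouse was above the lowest wild type mouse. The mean over members of log2(FPKM + 0.1) was 8.88 ± 0.06 (SD, n = 4) in the wild type at 2 weeks, 10.10 ± 0.51 (n = 4) in *Socs3* cKO at 2 weeks, 10.16 ± 0.30 (n = 3) in the wild type at 10 weeks and 9.68 ± 0.34 (n = 4) in *Socs3* cKO at 10 weeks. The wild type mice at 2 weeks were far closer to each other than the mice of any other group. FPKM is a share of the library, and in ear tissue fewer cells of a type and less RNA per cell cannot be told apart.

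**Figure D1:**
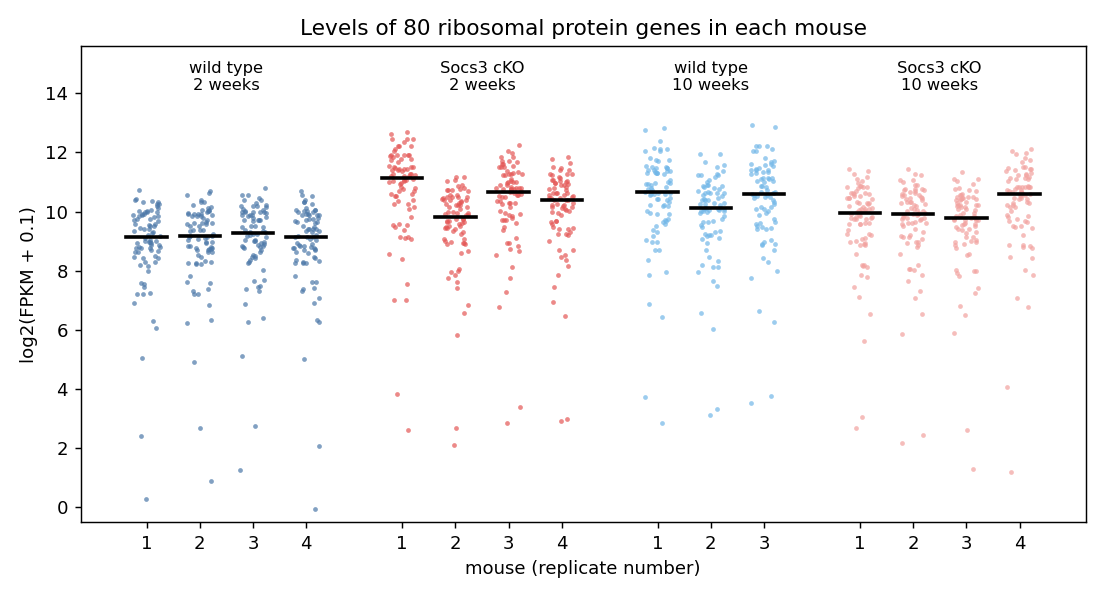
Level of each of 80 ribosomal protein genes, as log2(FPKM + 0.1), in each mouse (horizontal axis: replicate number within the group); each point is a gene and the black line is the median of the mouse. All 4 wild type mice at 2 weeks have lower medians than the other 11 mice, and *Socs3* cKO replicate 1 at 2 weeks has the highest.

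The libraries differed in ways that touch these values. Genes listed at 0 numbered 2087, 3176 and 1414 in the wild type at 10 weeks and 4044 to 4423 in the 12 mice of the other groups. *Socs3* cKO replicate 1 at 2 weeks had the fewest genes with an FPKM of at least 1 (11698). The S numbers that open the sample titles run in a separate range for each group, and the labels do not say what they number. A batch that followed them could not be told apart from the group. Keratinocyte markers were present throughout (*Krt5* at 838 to 2749 FPKM), and so were fibroblast markers, with sums from 12664 to 14859 FPKM in wild type mice of 2 weeks and from 3858 to 11807 in the other mice. In wild type mice of 2 weeks the fibroblast sums were mostly *Col1a1*, *Col1a2* and *Col3a1* (3538 to 4996 FPKM each). *Dcn*, of the same list, was 782 to 907 FPKM there and at least 1260 FPKM in the other mice. The ear therefore gave RNA of more than keratinocytes. *Socs3* itself was 9.71 to 10.3 FPKM in the wild type against 1.25 to 12.6 FPKM in *Socs3* cKO at 2 weeks, where 3 of 4 mice were below the wild type, and 2.02 to 4.81 against 29.8 to 47.7 FPKM at 10 weeks. The targeted gene was thus higher, not lower, at 10 weeks (limma, log2 fold change 3.54, adjusted p = 7.2e-05). FPKM over the whole gene may count a transcript that lacks the deleted part, and its part in these values was not tested.

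The members varied as one block. Over the 15 mice, 85.9% of the variance of 78 members (without *Rpl3l*, *Rpl39l* and *Rpl10l*, the members under about 10 FPKM) was shared by mouse, against 6.8% for the 13937 genes that reached an FPKM of 1 in 3 or more mice. The correlation of a member with the median of all members had a median of 0.977 over members, and it was above 0.95 for 59 of them. These correlations describe 15 mice in 4 groups, and the points of a mouse share a library. *Rplp2* was the member that did not follow, at -0.147. The next lowest were *Rps2* (0.746), which encodes a protein near the entry of the mRNA channel, *Rpl4* (0.749) and *Rpl3l* (0.76). The order of the members by level was kept between groups, with a Spearman correlation of 0.916 to 0.991 over 80 members.

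The levels of the members spanned a wide range. The highest means over all mice were those of *Rplp1* (3522 FPKM), *Rpl38* (3284 FPKM), *Rps28* (3159 FPKM) and *Rpl32* (2948 FPKM). *Rps28* and *Rpl32* are structural proteins of the small and the large subunit, and *Rpl38* is known for a role in the translation of *Hox* mRNAs. Neighbours in this order are not distinct, since within *Socs3* cKO at 2 weeks *Rplp1* ran from 2170 to 5282 FPKM and *Rpl38* from 1849 to 5619 FPKM. At the other end were 3 paralogs, *Rpl10l* (0.079 FPKM), *Rpl3l* (4.93 FPKM) and *Rpl39l* (8.91 FPKM), followed by *Rps15a* (67.9 FPKM). Reads of 50 bases limit such levels for genes with processed pseudogenes. Of all 50-base words in a member's transcript, a median of 64.5% over members also occurred elsewhere in mm9.

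At 2 weeks the members were higher in *Socs3* cKO than in the wild type almost throughout. Of 80 members tested, 79 had a positive log2 fold change, 47 were called higher (adjusted p below 0.01 and at least 2-fold; limma) and 0 lower. Among all 13524 genes tested, 7.24% were called higher and 7.19% lower. The median log2 fold change was 1.24 over members and -0.21 over all genes. In the small subunit 22 of 32 and in the large subunit 25 of 48 were called higher, with medians of 1.28 and 1.20. Regardless of size, 49 members were higher and 0 lower at an adjusted p below 0.01, beside 10.5% and 8.05% of all genes. Of the remaining, most missed the threshold by little: 78 members had an adjusted p below 0.05 and were higher, and no member was lower even at an unadjusted p below 0.05 (0 of 80). The shares of all genes at these looser limits were not counted. The groups did not overlap in 79 members, 78 of them higher and 1 lower, beside 22.9% and 33.2% of all genes.

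The count of called members changed when single mice were left out. It was 1 without wild type replicate 1, 2 or 4 and 4 without wild type replicate 3, and 3.66% to 3.97% of all genes were then called higher. Without *Socs3* cKO replicate 1, 2, 3 or 4 it was 43, 71, 2 and 10, beside 6.89%, 10.9%, 4.09% and 4.56% of all genes. The share of all genes fell or rose in the same sense as the members in these 8 fits. The median fold change of the members stayed between 1.01 and 1.48 in these fits. *Socs3* cKO replicate 2 had the lowest member median of its group, 867 FPKM, and replicate 1 the highest, 2173 FPKM, against 558 to 611 FPKM in the wild type.

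**Figure D2:**
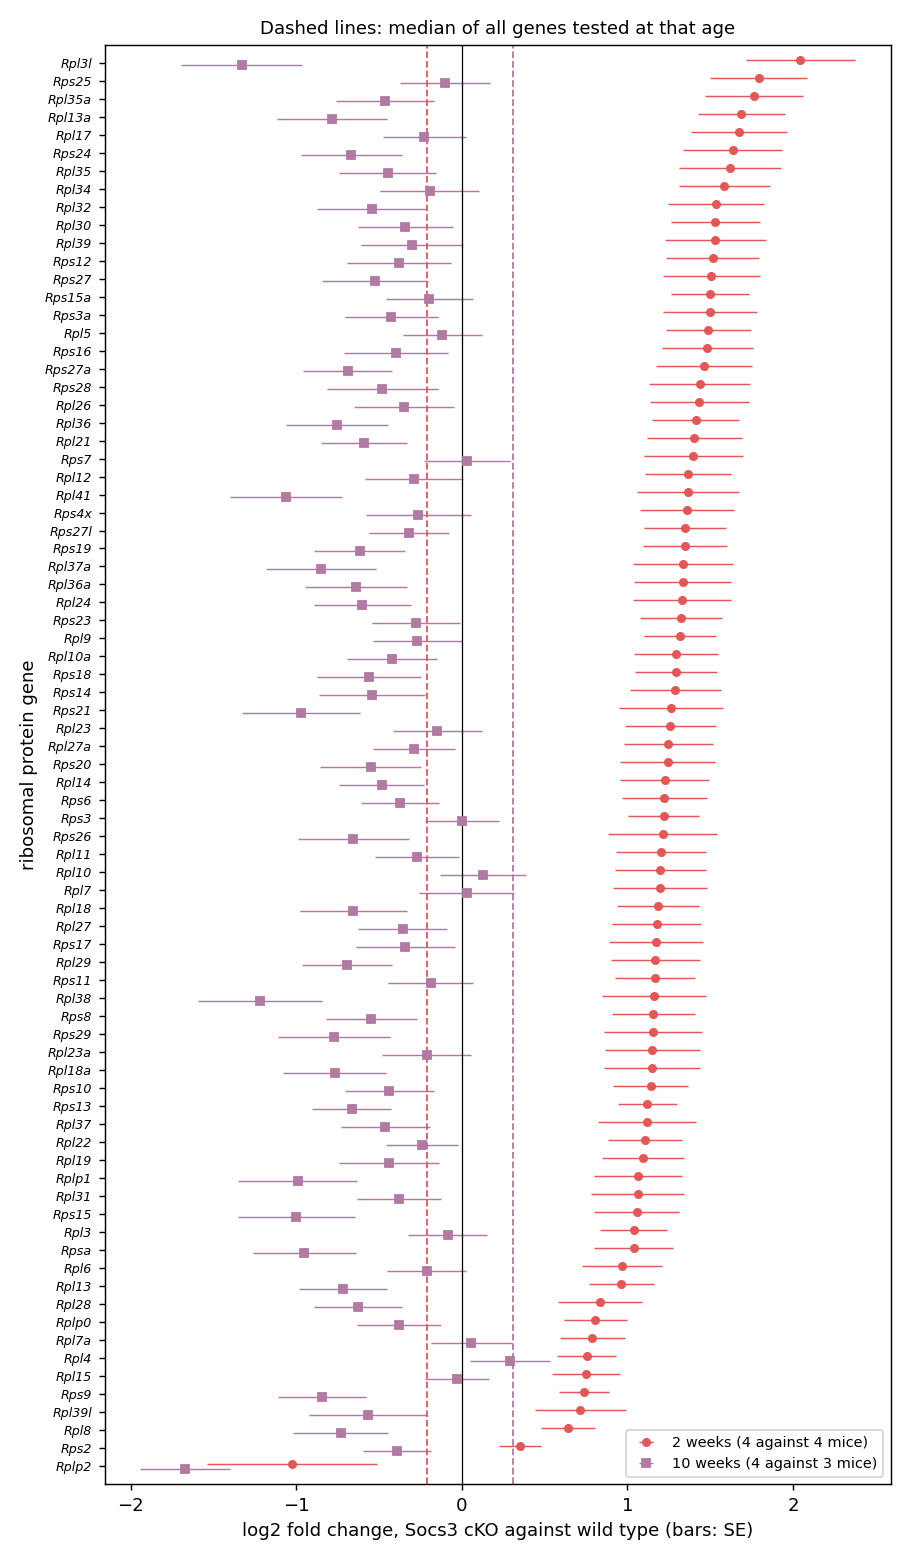
Log2 fold change of *Socs3* cKO against the wild type for 79 of the 80 tested members, at 2 weeks (circles) and at 10 weeks (squares), with the standard error as bars and the median of all genes tested as a dashed line for each age. Members lie right of 0 at 2 weeks with the exception of *Rplp2* and mostly left of 0 at 10 weeks, and *Rplp2* is lowest at both ages.

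Among genes with large differences at 2 weeks was *Rps25*, a small subunit protein used by viral internal ribosome entry sites. It was 435, 417, 454 and 386 FPKM in the wild type against 2484, 859, 1602 and 1344 FPKM in *Socs3* cKO, so that the groups lay apart. Its log2 fold change was 1.79 (SE 0.29, adjusted p = 0.0028). *Rpl35a*, whose human gene is mutated in some patients with Diamond-Blackfan anaemia, was 469, 454, 509 and 460 FPKM against 2763, 959, 1786 and 1411 FPKM (log2 fold change 1.77, SE 0.29, adjusted p = 0.003). *Rpl13a*, known for its release from the ribosome under interferon-γ, was 923, 762, 914 and 685 FPKM against 3835, 1676, 2971 and 2480 FPKM (log2 fold change 1.69, SE 0.26, adjusted p = 0.0022). In all 3 genes *Socs3* cKO replicate 1 was the highest and replicate 2 the lowest of the group, as for the member median.

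The members with a known role beyond assembly followed the block. *Rps6* was 311, 323, 345 and 333 FPKM in the wild type against 1214, 496, 845 and 674 FPKM in *Socs3* cKO at 2 weeks, and the groups did not overlap. Its log2 fold change was 1.22 (SE 0.25, adjusted p = 0.0075). Of the p53 regulators, *Rpl5* passed the test with a log2 fold change of 1.49 (SE 0.26, adjusted p = 0.0034), whereas *Rpl11* had a like difference of 1.20 (SE 0.27) and missed it at an adjusted p of 0.010. *Rps19*, the gene first linked to Diamond-Blackfan anaemia, rose by 1.35 (SE 0.25, adjusted p = 0.0052) on the log2 scale, and *Rps27a*, made as a fusion with ubiquitin, by 1.46 (SE 0.29, adjusted p = 0.0062). *Rps3*, which also acts in DNA repair, rose by 1.22 (adjusted p = 0.0038), *Rps4x*, an X-linked gene of the small subunit, by 1.36 (adjusted p = 0.0075) and *Rpl22*, a large subunit protein with a role in T cell development, by 1.11 (adjusted p = 0.0067). *Rpsa*, also known as the laminin receptor, had 1.04 and did not pass (adjusted p = 0.011), as did *Rpl10*, a late-joining protein of the large subunit, with 1.20 (adjusted p = 0.011) and *Rpl41*, the smallest ribosomal protein, with 1.36 (adjusted p = 0.010).

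A few members stood at the low end at 2 weeks. *Rps2* was 402, 439, 444 and 419 FPKM in the wild type against 560, 476.4, 550 and 593 FPKM in *Socs3* cKO, and it differed by 0.35 (SE 0.13, adjusted p = 0.049). *Rpl8*, a core protein of the large subunit, differed by 0.64 (SE 0.16, adjusted p = 0.015), with no overlap. *Rpl39l*, a relative of *Rpl39* known from testis, was the one member whose groups overlapped. Its log2 fold change was 0.72 (SE 0.28, adjusted p = 0.059). *Rplp2* was the lowest and is described next.

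*Rplp2* lay on the other side of the wild type from its partners in the P stalk at 2 weeks. *Rplp2* lies on chromosome 7 of mm9 from 148633269 to 148637484. At 2 weeks it was 861, 916, 938 and 871 FPKM in the wild type against 128, 684, 714.7 and 600 FPKM in *Socs3* cKO. The groups did not overlap, and replicate 1, which had the highest member median, was the lowest by far. The log2 fold change was -1.03 (SE 0.51) and did not pass the test (adjusted p = 0.12). Without *Socs3* cKO replicate 1 it was -0.43 (adjusted p = 0.022). Some other members were also low in replicate 1 relative to the member median of each mouse, on the log2 scale. *Rps2* was -2.01 there and -1.57 to -0.93 in the other *Socs3* cKO mice of 2 weeks, and *Rpl8* -0.595 and 0.11 to 0.41. These genes were picked out after their values were seen, and other members were relatively high in replicate 1.

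The partners of *Rplp2* were higher in the same *Socs3* cKO mice of 2 weeks. *Rplp1* was 1711, 1660, 1801 and 1657 FPKM in the wild type against 5282, 2170, 4056 and 3495 FPKM in *Socs3* cKO at 2 weeks (log2 fold change 1.07, SE 0.26, adjusted p = 0.014). *Rplp0* was 1216, 1208, 1248 and 1218 FPKM against 2998, 1779, 2050 and 1915 FPKM (log2 fold change 0.81, SE 0.19, adjusted p = 0.012). Neither passed the threshold at 2 weeks, and both were without overlap there. Both had lower means in *Socs3* cKO at 10 weeks, as did *Rplp2*, and their groups overlapped. *Rplp1* was then 7234, 3954 and 7500 FPKM in the wild type against 2675, 2807, 2580 and 4243 FPKM in *Socs3* cKO. *Rplp0* was 2546, 1755 and 2271 FPKM against 1589, 1726, 1559 and 1808 FPKM. As a share of *Rplp1*, *Rplp2* was 52.5% ± 2.03 (SD, n = 4) in the wild type at 2 weeks, 17.2% ± 11.9 (n = 4) in *Socs3* cKO at 2 weeks, 43.3% ± 3.48 (n = 3) in the wild type at 10 weeks and 27.97% ± 7.86 (n = 4) in *Socs3* cKO at 10 weeks. The lowest share in a wild type mouse of either age was 39.7% and the highest in a *Socs3* cKO mouse 34.3%. Of the 50-base words of *Rplp2*, 65.0% occurred elsewhere in mm9, at 1 other place with 50 or more of them, and of *Rplp1* 62.3%, at 3 other places. The part of such copies in the difference was not tested.

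**Figure D3:**
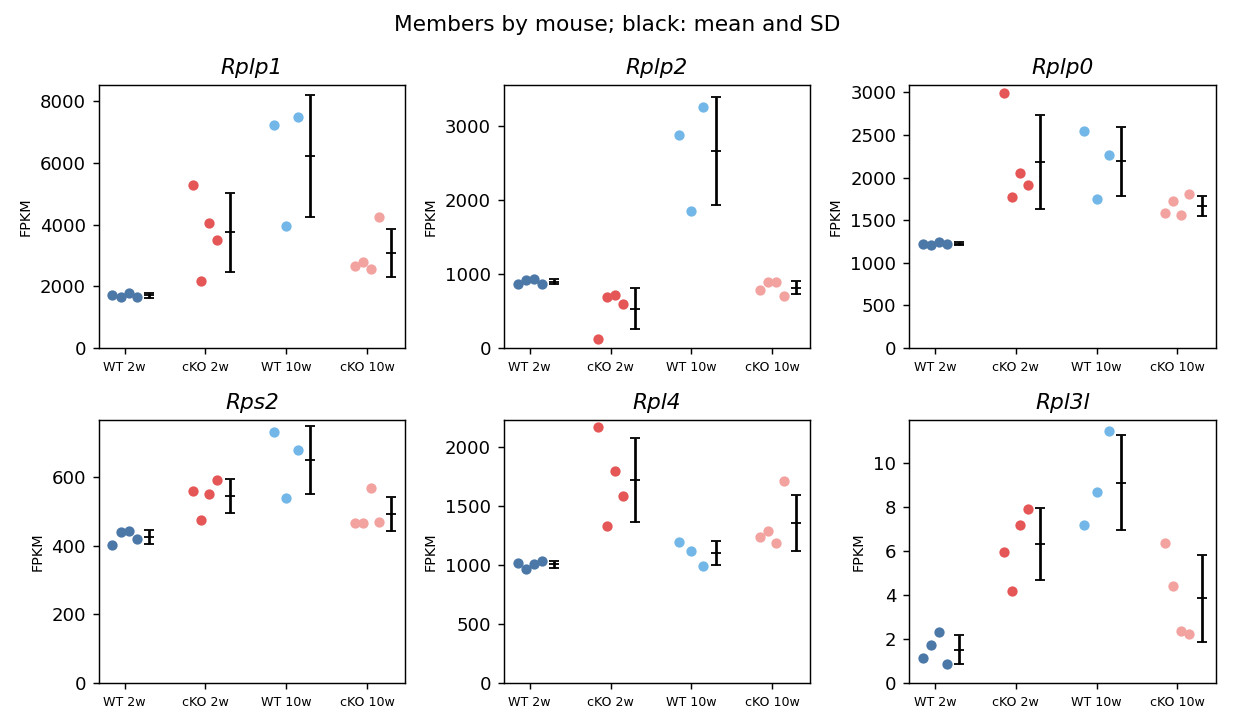
FPKM of 6 members in each mouse by group (points; cKO is *Socs3* cKO), with the mean and SD of the group in black beside the points. *Rplp2* is lower in *Socs3* cKO at both ages without overlap, whereas *Rplp1*, *Rplp0*, *Rps2*, *Rpl4* and *Rpl3l* are higher in *Socs3* cKO at 2 weeks.

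At 10 weeks the members tended to the other side. Of 80 members tested, 74 had a negative log2 fold change in *Socs3* cKO and 6 a positive one. The median was -0.44 over members and 0.31 over all 13105 genes. One member, *Rplp2*, was called lower and 0 higher, both with and without the 2-fold limit. Among all genes 2.43% were called lower and 12.5% higher, or 3.43% and 14.5% regardless of size. At an unadjusted p below 0.05, 22 members were lower and 0 higher, and 7 were lower at an adjusted p below 0.05. These counts have no share of all genes beside them, since it was not counted at these limits. The groups did not overlap in 4 members, all lower (*Rplp2*, *Rpl3l*, *Rps9* and *Rps13*), beside 11.1% of all genes lower and 31.2% higher without overlap. *Rps9* and *Rps13* are small subunit proteins that were picked out here after their values were seen. With median-of-ratios scaling the split of all genes was 5.03% lower and 7.66% higher.

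*Rplp2* was 2873, 1846 and 3258 FPKM in the wild type against 781, 891, 886 and 705 FPKM in *Socs3* cKO at 10 weeks. The highest *Socs3* cKO mouse was below the lowest wild type mouse. The log2 fold change was -1.67 (SE 0.27, adjusted p = 0.002). It no longer passed without wild type replicate 3 (adjusted p = 0.013) or with all 4 groups in one fit (adjusted p = 0.011), with fold changes of -1.504 and -1.67.

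The next lowest members at 10 weeks were *Rpl3l*, described with the paralogs, *Rpl38* and *Rpl41*, and they did not pass the test. *Rpl38* was 6967, 3984 and 7817 FPKM in the wild type against 2485, 2143, 2087 and 3988 FPKM in *Socs3* cKO, so that one *Socs3* cKO mouse reached the lowest wild type mouse. Its log2 fold change was -1.22 (SE 0.37, adjusted p = 0.029). *Rpl41* was 5322, 2881 and 4761 FPKM against 1805, 1708, 1793 and 2906 FPKM (log2 fold change -1.06, SE 0.34, adjusted p = 0.033). In both genes the overlap came from *Socs3* cKO replicate 4, the highest of its group, and wild type replicate 2, the lowest. At the other end *Rpl4* was 1196, 1117 and 989 FPKM in the wild type against 1241, 1285, 1191 and 1712 FPKM in *Socs3* cKO. Its log2 fold change was 0.29 (SE 0.24, adjusted p = 0.35). *Rpl10* (0.13), *Rpl7a* (0.06), a large subunit protein, and *Rps7* (0.03), a small subunit protein, were the next highest.

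The effect of the genotype differed between the ages for most members. The genotype by age interaction, tested on all 4 groups, was lower at an adjusted p below 0.01 for 68 members and higher for 0 (none at an unadjusted p below 0.05 either). Among all 13937 genes 7.05% were lower and 18.5% higher, or 10.8% and 14.1% with median-of-ratios scaling. The median interaction was -1.72 over members and 0.55 over all genes. The strongest was that of *Rpl3l* (-3.38, SE 0.53, adjusted p = 0.00042). The 12 members that did not pass included *Rplp2* (-0.64, SE 0.62, adjusted p = 0.40), *Rpl4* (-0.46, adjusted p = 0.15), *Rps2* (-0.75, adjusted p = 0.011) and *Rpl10* (-1.07, adjusted p = 0.032). Without *Socs3* cKO replicate 1 at 2 weeks, the interaction of *Rplp2* was -1.24 (adjusted p = 0.0023). The number of members fell to 36 without wild type replicate 1 and to 37 without wild type replicate 3 at 10 weeks, where 3.75% and 4.37% of all genes were lower.

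The age contrasts within each genotype come from the same fit and share its samples. In the wild type 62 members were called higher at 10 than at 2 weeks and 0 lower (0 also at an unadjusted p below 0.05), beside 6.18% and 19.4% of all genes, or 10.2% and 13.3% with median-of-ratios scaling. The median was 1.30 over members and -0.44 over all genes. It ran from 0.13 (SE 0.19) in *Rpl4* to 2.58 (SE 0.39) in *Rpl3l*. *Rplp2* differed by 1.53 (SE 0.46) and missed the threshold (adjusted p = 0.013). The count was 33 without wild type replicate 1 or 3 at 10 weeks, beside 3.76% and 4.33% of all genes. In this comparison all 5 hair shaft markers (median -9.12), 4 of 4 endothelial markers (median -2.21) and 3 of 6 fibroblast markers (median -1.22) were called lower, and their part in the members' values was not tested. In *Socs3* cKO no member was called in either direction (limma: 0 higher and 0 lower), beside 2.01% and 1.53% of all genes. At an unadjusted p below 0.05, 7 members were lower and 0 higher in *Socs3* cKO. The share of all genes at that limit was not counted. The median there was -0.46, and *Rplp2* alone was positive (0.89, SE 0.42, adjusted p = 0.20). Without *Socs3* cKO replicate 1 at 2 weeks, the median was -0.24 and the difference of *Rplp2* 0.29.

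Paralogs that replace or accompany a common member were few in RNA. *Rpl3l*, which replaces *Rpl3* in striated muscle, was 1.13, 1.74, 2.31 and 0.863 FPKM in the wild type against 5.97, 4.19, 7.17 and 7.92 FPKM in *Socs3* cKO at 2 weeks. The groups did not overlap (log2 fold change 2.05, SE 0.33, adjusted p = 0.0026). Its 10-week values were 7.18, 8.70 and 11.5 FPKM in the wild type against 6.39, 4.401, 2.38 and 2.22 FPKM in *Socs3* cKO. It was lower in *Socs3* cKO without overlap but not called (log2 fold change -1.33, SE 0.36, adjusted p = 0.019). As a share of *Rpl3*, it was 0.351%, 0.720%, 1.26% and 0.596% on average in the wild type and then *Socs3* cKO of 2 weeks, and in the same 2 genotypes of 10 weeks.

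The summed markers of skeletal muscle moved in the same sense as *Rpl3l* between the genotypes, while single markers were divided. The sum of *Acta1*, *Ckm*, *Myh4*, *Tnnt3* and *Mb* was 429 to 649 FPKM in the wild type against 950 to 1539 FPKM in *Socs3* cKO at 2 weeks, with 3 of 5 called higher. The 10-week range was 684 to 1231 FPKM in the wild type against 298 to 580 FPKM in *Socs3* cKO, with 1 of 5 called lower. The fold change was positive for all 5 at 2 weeks and for 1 of 5 at 10 weeks. Over 15 mice *Rpl3l* and this sum had a Pearson correlation of 0.709 on the log2 scale, with the 4 groups as shared structure. From 2 to 10 weeks in the wild type *Rpl3l* rose, as did *Mb* (2.63 to 4.91 and 318 to 559 FPKM) and *Tnnt3* (114 to 167 and 175 to 273 FPKM). *Myh4* fell (21.0 to 28.8 and 3.20 to 11.2 FPKM). *Acta1* (223 to 348 and 110 to 251 FPKM) and *Ckm* (61.7 to 101 and 77.8 to 146 FPKM) overlapped between the ages. The part of muscle RNA in the values of *Rpl3l* was not tested.

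The remaining paralogs differed widely in their level beside their partners. *Rpl39l* was 0.525%, 0.298%, 0.466% and 0.391% of *Rpl39* in the same order of groups, and *Rpl39* rose by 1.53 (SE 0.30, adjusted p = 0.0064) at 2 weeks. *Rps27l*, a p53 target, was 15.3%, 13.8%, 11.7% and 13.4% of *Rps27*. *Rps27l* (log2 fold change 1.35, adjusted p = 0.0046) and *Rps27* (1.51, adjusted p = 0.0059) were both called higher at 2 weeks, and neither at 10 weeks. *Rpl10l*, an autosomal relative of *Rpl10* that acts in male germ cells, did not pass the filter on low values. It was 0.371, 0.432 and 0.375 FPKM in the wild type at 10 weeks, 0.0123 FPKM in *Socs3* cKO replicate 2 at 2 weeks and listed at 0 in the other 11 mice.

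Ribosomal protein genes are short, and short genes in general moved alike. The median transcript was 744 bases for 80 annotated members and 2314 bases for all genes, and 78 members were shorter than the latter. Relative to the wild type at 2 weeks, 288 other genes of up to 600 bases had a median log2 difference of 0.69 in *Socs3* cKO at 2 weeks, 0.88 in the wild type at 10 weeks and 0.38 in *Socs3* cKO at 10 weeks. The 27 members of that length had 1.29, 1.48 and 0.85. For genes of over 4800 bases, 2099 in number, the medians were -0.46, -0.91 and -0.17. Members of over 600 and up to 1200 bases (n = 38) had 1.21, 1.20 and 0.75, against 0.40, 0.505 and 0.24 for 1475 other genes. Members of over 1200 and up to 2400 bases (n = 12) had 1.19, 1.17 and 0.71, against -0.10, -0.17 and -0.07 for 4128 other genes of that length. Each length is that of the annotated transcript with the longest coding sequence, such as 4999 bases for *Rpl24*. The transcript in use may have another length, so members may stand in a class that is not theirs. The trend of each sample with transcript length and GC content was then removed. The median of the members became 0.82 at 2 weeks and -0.28 at 10 weeks. With the trend removed, 24 members were called higher at 2 weeks, beside 7.003% of all genes. The interaction then had a median of -1.13 and was lower for 58 members, beside 14.25% of all genes. Before removal it was lower for 68 members, beside 7.05% of all genes. The part of fragment length, RNA quality or library preparation was not tested.

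**Figure D4:**
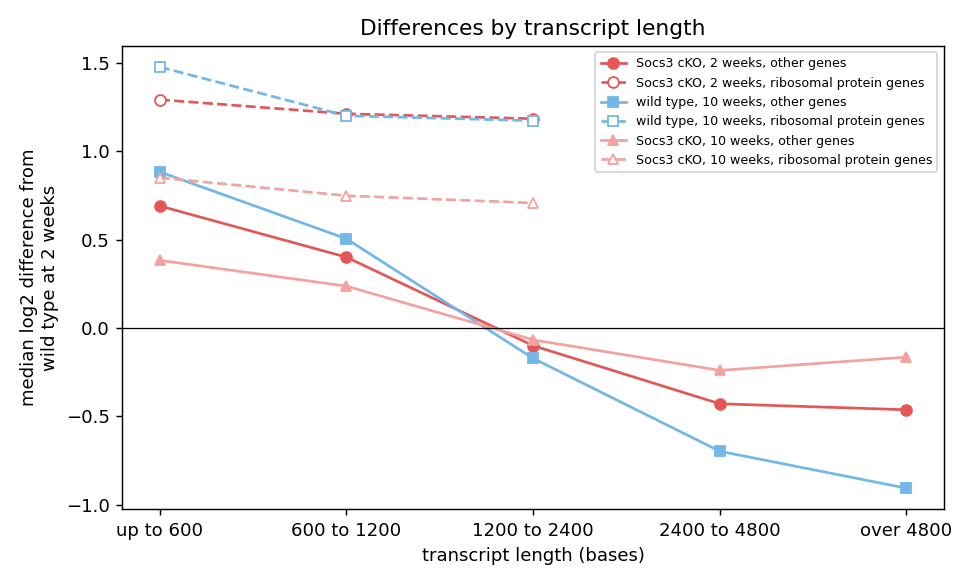
Median log2 difference from the wild type at 2 weeks (vertical axis) by transcript length in bases (horizontal axis) for 3 groups; filled symbols with solid lines are other genes and open symbols with dashed lines are ribosomal protein genes, in the classes that hold at least 12 of them. Differences of other genes fall with length from 0.69 to -0.46 in *Socs3* cKO at 2 weeks, and the members lie above the other genes of their annotated length.

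GC content also differed between libraries. Over 13368 genes the difference of a library from the mean of the wild type at 2 weeks had a correlation with GC content of -0.60 in *Socs3* cKO replicate 1 at 2 weeks and of -0.37 to -0.30 in the other *Socs3* cKO mice. In wild type mice of 10 weeks it lay between -0.21 and -0.05. The GC content of the members ran from 41.3% to 60.9%, with a median of 51.5% against 50.1% for all genes. In *Socs3* cKO replicate 1 the 20 members lowest in GC differed by a median of 2.104 and the 20 highest by 1.79.

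Genes close to the members in function had lower medians at 2 weeks. Of the 5 ribosomal proteins or relatives outside the pattern, 2 were called higher at 2 weeks, *Rpl36al* (1.29, adjusted p = 0.0097) and *Fau*, which carries *Rps30* (1.25, adjusted p = 0.0088), with a median of 1.13 for the list, and 0 at 10 weeks with a median of -0.51. Of 75 mitochondrial ribosomal proteins, 3 were called higher at 2 weeks, such as *Mrpl41* (1.18, adjusted p = 0.0086), and 2 lower at 10 weeks, *Mrps26* (-1.17, adjusted p = 0.0013) and *Mrpl28* (-1.01, adjusted p = 0.005). The medians were 0.55 and -0.44, and the interaction was negative in sign for 67 and past the test in that direction for 35. Among all genes 7.24% were called higher at 2 weeks, 2.43% lower at 10 weeks and 7.05% lower in the interaction. With the 2-fold limit, the called mitochondrial genes at each age were no more frequent than about these shares. Regardless of size, 6 were higher and 0 lower at 2 weeks, beside 10.5% and 8.05% of all genes. At 10 weeks 8 were lower and 0 higher, beside 3.43% and 14.5%. The groups did not overlap in 39 higher and 7 lower at 2 weeks, beside 22.9% and 33.2% of all genes. Without overlap at 10 weeks were 29 lower and 0 higher, beside 11.1% and 31.2%. These genes work in another compartment, and the part of transcript length in their values was not tested.

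Translation genes with TOP mRNAs that are no members were divided. At 2 weeks 3 of 17 were called higher, *Eif3e* (1.52, adjusted p = 0.0042), *Fau* and *Eef1b2* (1.25, adjusted p = 0.0037), with a median of 0.61. At 10 weeks the initiation factor gene *Eif3f* was called lower (-1.52, adjusted p = 0.00043) and *Eef2*, the elongation factor of translocation, higher (1.33, adjusted p = 0.0042), with a median of 0.24. Of 29 initiation factors, *Eif3m* was called higher (1.44, adjusted p = 0.0045) and *Eif4g3* lower (-1.70, adjusted p = 0.0043) at 2 weeks, and 3 were higher at 10 weeks, among them *Eif2s1* (1.34, adjusted p = 0.0041) and *Eif4g1* (1.12, adjusted p = 0.0082). Of 35 ribosome biogenesis genes, 2 were higher at 2 weeks, such as *Nhp2* (1.11, adjusted p = 0.0065), and 2 at 10 weeks, *Nop58* (1.28, adjusted p = 0.0037) and *Sbds* (1.15, adjusted p = 0.0017). The medians of the last 2 lists lay between 0.08 and 0.19 at both ages. Among all genes 7.24% were called higher and 7.19% lower at 2 weeks, and 12.5% and 2.43% at 10 weeks. The calls of initiation factors and biogenesis genes lay near or below these shares.

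Regulators of ribosomal protein genes had medians of the opposite sign. At 2 weeks 1 of 15 genes of the mTOR and *Myc* list was called lower, *Mycn* (-2.41, adjusted p = 0.00053), and the list had a median of -1.23. At 10 weeks 5 of 14 were called higher with a median of 0.64, among them *Eif4ebp2*, a repressor of cap-dependent initiation (2.98, adjusted p = 0.003), *Sesn2*, an inhibitor of mTOR (2.58, adjusted p = 0.0035), and *Myc* (1.99, adjusted p = 0.00092). Beside these counts, 7.19% of all genes were called lower at 2 weeks and 12.5% higher at 10 weeks. The list holds activators and repressors, so its median has no direction of activity.

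**Figure D5:**
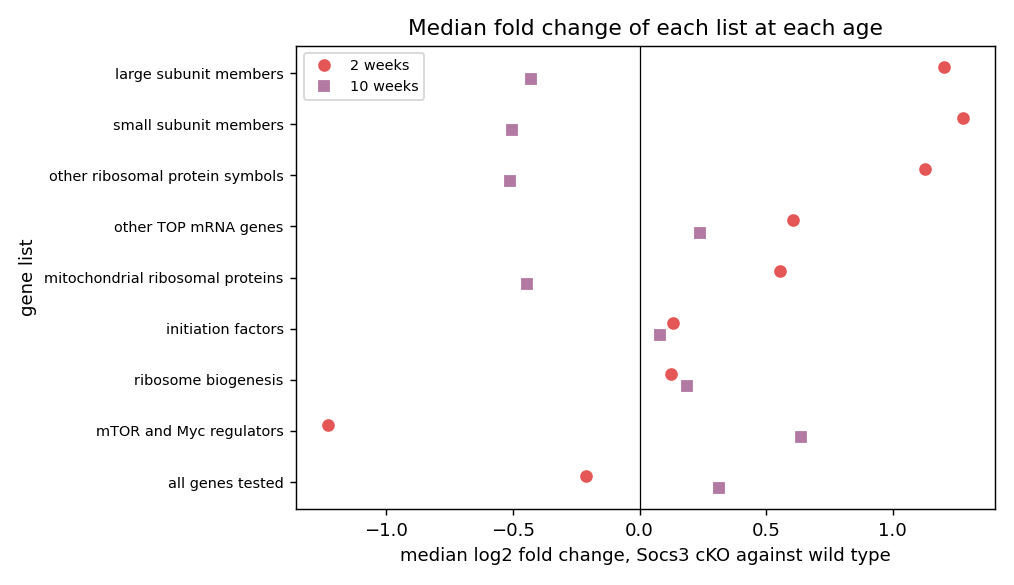
Median log2 fold change of *Socs3* cKO against the wild type for each gene list (vertical axis), at 2 weeks (circles) and 10 weeks (squares). The medians of both subunits are above 1 at 2 weeks and below 0 at 10 weeks, and those of the mTOR and *Myc* regulators are -1.23 and 0.64.

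Markers of other cell types differed in the same comparisons. At 2 weeks all 5 hair shaft markers were called lower in *Socs3* cKO, with sums of 415 to 712.5 FPKM in the wild type against 0.768 to 8.87 FPKM in *Socs3* cKO, and 3 of 6 fibroblast markers were lower and 1 higher. Of 4 adipocyte markers 1 was higher (sums of 18.2 to 19.5 and 30.5 to 172 FPKM). At 10 weeks 4 of 5 macrophage markers (251 to 418 and 596 to 1030 FPKM), 3 of 4 endothelial markers (10.4 to 14.5 and 27.9 to 38.8 FPKM) and 2 of 4 adipocyte markers (45.7 to 49.8 and 70.7 to 213 FPKM) were called higher. Macrophage markers at 2 weeks were 195 to 229 FPKM against 294 to 644 FPKM, with none of 5 past the 2-fold limit and 1 higher regardless of size. Neutrophil sums were 5.36 to 11.4 against 119 to 236 FPKM at 2 weeks, where the 1 marker tested, *S100a8*, was called higher. These sums were nearly all *S100a8*, at 4.57 to 10.4 against 118 to 234 FPKM. *Csf3r* was 0.404 to 0.868 against 0.185 to 0.648 FPKM, and *Mpo* and *Elane* were at most 1.60 FPKM at 2 weeks. T cell markers (1 higher and 1 lower of 3 at 2 weeks, 1 higher of 3 at 10 weeks), keratinocyte markers (1 higher of 4 at 2 weeks) and chondrocyte markers (1 lower of 3 at 2 weeks) had few calls. Beside these counts, 7.24% of all genes were called higher and 7.19% lower at 2 weeks, and 12.5% and 2.43% at 10 weeks. The part of a changed mix of cells in the members' values was not tested.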

How the data were processed

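Ear RNA of 15 mice was sequenced by the authors as single reads of 50 bases from TruSeq libraries. They aligned them to mm9 with TopHat2 (version 2.1.0, per the submitters' processing notes, which also name Cufflinks) and deposited an FPKM value for each gene, which is normalized for gene length and mapped reads. No counts were used here, so depth and counting error are unknown, and a count test could not be run. The authors tested the genes in edgeR.

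Values were analysed as log2(FPKM + 0.1) with limma 3.58.1 (trend in the prior variance) in R 4.3.3 on genes that reached an FPKM of 1 in 3 or more of the samples compared. Fold changes on this scale understate those of low genes. Tests were 2-sided with Benjamini-Hochberg adjustment over all genes. Called genes had an adjusted p below 0.01 and a log2 fold change of at least 1, or the adjusted p alone for the interaction. Each comparison of the genotypes used the 2 groups of that age, and the interaction and age contrasts used all 4. No pair of members shared its values in all mice. Whether replicates are separate cages or litters is not given in the sources used here. The limma step, tested on simulated data with 4 mice in each group and the wild type spread seen at 2 weeks, recovered 199 of 200 changed genes among 12792 with 0 false calls. Groups as variable as *Socs3* cKO, or 3 mice against 4, were not simulated.

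Members, gene lists (TOP mRNAs, mitochondrial ribosomal proteins, initiation, biogenesis, mTOR and *Myc*, proliferation, small nucleolar RNAs, histones, markers of cell types) and the rule for named genes were chosen with earlier results of these data known. Genes named one by one were the 4 members with the most extreme fold change in each direction at each age, the 4 highest and 4 lowest by mean FPKM, members with a known further role and up to 3 genes per list. Alternatives were pseudocounts of 1 and 0.01, no filter and a stricter filter, median-of-ratios scaling, quantile normalization, a constant prior variance, removal of the trend with transcript length and GC content (a spline with 4 df), all 4 groups in one fit, a block for the replicate number and each mouse left out in turn. Transcripts (the longest coding one) and 50-base words came from the GENCODE annotation and genome of mm9. Python 3.11.15 was used with numba 0.67.0, pandas 2.3.3, numpy 2.4.6 and, for figures, matplotlib 3.10.9. The fourth wild type mouse at 10 weeks and further wild type mice at 2 weeks that the study describes were not analysed here. Some single genes are counted with the members and lists but not reported here one by one.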

Additional observations from a re-analysis of the deposited data

Results flagged for a closer look

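Dixon's criterion (0.829 for 4 samples) was applied to 24 named members and to the members' mean log2 level and share of FPKM. Chance gives about 1 in 20. In 12 of the 78 groups of 4 mice tested, one mouse lay far from the rest of its group, each time in a named member. In 10 of the 12 it was *Socs3* cKO replicate 4 at 10 weeks, higher than the other 3: *Rplp1* (4243 FPKM), *Rpsa* (1141 FPKM), *Rps6* (731 FPKM), *Rpl11* (857 FPKM), *Rps3* (730 FPKM), *Rpl3* (930 FPKM), *Rpl10* (1363 FPKM), *Rps4x* (3597 FPKM), *Rpl41* (2906 FPKM) and *Rps25* (1815 FPKM). The members vary together, so these are not separate observations. The other 2 were *Rpl38* in wild type replicate 1 at 2 weeks (1318 FPKM, low) and *Rps2* in *Socs3* cKO replicate 3 at 10 weeks (569 FPKM, high). Without *Socs3* cKO replicate 4, the median log2 fold change of the members at 10 weeks was -0.61, and 2 members were called lower, beside 2.72% of all genes.

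The effect of *Socs3* cKO differed between 2 and 10 weeks by the interaction test (limma, adjusted p below 0.01) in 68 members, all lower at 10 weeks. Among named members the interaction on the log2 scale was -3.38 in *Rpl3l*, -2.43 in *Rpl41*, -2.38 in *Rpl38*, -2.15 in *Rps27a*, -2.06 in *Rplp1*, -2.03 in *Rps27*, -1.99 in *Rpsa*, -1.96 in *Rps19*, -1.89 in *Rps25*, -1.83 in *Rpl39*, -1.67 in *Rps27l*, -1.62 in *Rps4x*, -1.61 in *Rpl5*, -1.60 in *Rps6*, -1.47 in *Rpl11*, -1.34 in *Rpl22*, -1.22 in *Rps3*, -1.18 in *Rplp0* and -1.12 in *Rpl3*. The wild type at 10 weeks stands apart in genes listed at 0, and the part of this in the interaction was not tested.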

How the results depend on the processing

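The members called higher at 2 weeks numbered 27 with median-of-ratios scaling, 4 with quantile normalization, 2 with the replicate block (the replicate number as a term), 24 with the length and GC trend removed, and 1 to 71 with one mouse left out. It was 68 with all 4 groups in one fit. Of all genes, 6.93%, 10.9%, 2.96% and 8.38% were higher with median-of-ratios scaling, quantile normalization, the block and the joint fit. With the trend removed, 7.003% of all genes were higher. The median was 0.47 with quantile normalization. At 10 weeks the number lower was 2 without a filter or with quantile normalization, 0 with all 4 groups in one fit, and 0 to 2 with one mouse left out. The shares of all genes lower were 3.53% without a filter, 6.23% with quantile normalization, 2.42% in the joint fit and 0.75% to 2.72% with one mouse left out. For the interaction, quantile normalization gave 1 member higher and a median of -0.74, removal of the trend a median of -1.13, and leaving out one mouse 36 to 77 lower. With quantile normalization 13.0% of all genes were higher, and with one mouse left out 3.75% to 9.965% were lower. Removal of the trend gave 58 members lower in the interaction, beside 14.25% of all genes. For age in the wild type, the number higher was 12 with quantile normalization, 34 with the trend removed and 33 to 64 with one mouse left out, and the medians were 1.62 (median-of-ratios), 0.58 (quantile) and 0.95 (trend removed). The shares of all genes called higher were 12.3%, 8.75% and 3.76% to 6.69% in these 3 settings, so the 12 of 80 members under quantile normalization lay near the share of all genes. *Rps27l* at 2 weeks turned to -0.008 with the trend removed, and the interaction of *Rplp0* to 0.13 with quantile normalization. The cause was not tested.

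The sign of the members' median was the same in every alternative run for the 5 comparisons. Median-of-ratios scaling moved the median of all genes at 10 weeks from 0.31 to 0.03, and the difference of the members' median from it went from -0.756 to -0.762. It was -0.166 with quantile normalization (members' median -0.208) and -0.191 with the trend removed (-0.277). Replicate numbers did not pair the samples: deviations of same-numbered mice had a mean correlation of -0.002 at 2 weeks (-0.057 to 0.057) and -0.117 at 10 weeks (-0.203 to 0.036). Depth is unknown.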

Other observations

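Small nucleolar RNA genes, many of which lie in introns of ribosomal protein genes, did not follow the members. Of 47 tested at 2 weeks 1 was called higher and 2 lower, with a median log2 fold change of -0.08, and of 48 at 10 weeks 3 were higher and 0 lower (limma), with a median of 1.35. Among all genes 7.24% were called higher and 7.19% lower at 2 weeks, and 12.5% and 2.43% at 10 weeks. RNAs of this size are recovered unevenly by poly(A) libraries. Replication-dependent histone genes, short like the members and mostly without poly(A), had medians of -0.18 (45 tested, 1 lower) and -0.21 (41 tested, 1 lower). Of 10 proliferation genes none was called at either age (limma), with medians of -0.35 and 0.56. The largest difference at 2 weeks was that of *Aurkb* (-2.04, SE 0.52, adjusted p = 0.015).

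Copies of the members in the genome varied widely. In 12 of 80 members over 90% of the 50-base words of the transcript occurred elsewhere in mm9, and in 6 under 10%. The number of other places with at least 50 words had a median of 5 and reached 55 in *Rpl21* and *Rpl7a*, and it was 51 in *Rps2*. The share of words elsewhere and the mean FPKM had a Spearman correlation of 0.083 over members, as a description.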
